A study of Homo sapiens with 4 samples.

Results

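Merged loci are entries of a transcript assembly in which 2 or more neighbouring genes share a single identifier, a single FPKM value and a single count. They were taken as the entries of the deposited expression table that name at least 2 genes and that reached a count of at least 200 in each of the 4 libraries, which left 1727 of the 64873 entries in the table. Another 361 entries named several genes but fell below this count in at least 1 library, so that 2088 entries name several genes in all. The comparison set was the 9499 entries that name 1 gene and reached the same count. All 4 libraries came from K562, an established human erythroleukemia cell line, carrying U2AF1_S34F overexpression. U2AF1 is the small subunit of the factor that recognises the 3′ splice site, and S34F is a change in this protein that recurs in myeloid cancers. DMSO 1 and DMSO 2 were control cells given the solvent, and SF1-8 1 and SF1-8 2 were cells given SF1-8, a compound aimed at the UHM domain of U2AF1, at 30 µM for 48 h. Cells without the S34F protein are not among these samples, so every value below belongs to cells that overexpress it. The labels do not say whether the 2 libraries of a group came from separate cultures, and p-values then measure only the spread between these libraries.

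Genes are not evenly spaced in the genome. Small RNA genes sit in the introns or exons of host genes, tandem gene families lie side by side, pseudogenes and long non-coding RNAs overlap coding genes, and RNA polymerase can read from a gene into the next on the same strand. An assembler such as StringTie joins transcripts that overlap on a strand into a single locus, so that such neighbours are measured together. A level of a merged locus is therefore the summed RNA of all its genes, and which of its genes gave the reads cannot be told from the value.

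The total count was between 45522905 in DMSO 1 and 67554610 in SF1-8 1, and DMSO 1 was the shallowest library. All 10 markers fixed for the erythroid line reached an FPKM of at least 1 in some library. No marker of B cells or neutrophils did, while 1 of 3 markers of T cells, 1 of 3 of monocytes, 3 of 5 of stroma and 2 of 3 of epithelium did, the highest at 18.5 FPKM. A part of these markers in the values of merged loci was not tested.

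Sequences are shown for 3 kinds of merged locus, to let the genes that share a value be seen. The locus with the most miRNA genes holds the miR-17-92 cluster (MIR17HG, at chr13:91347820-91354577 of GRCh38, plus strand), where 6 miRNA genes lie in a single host transcript. The main mature miRNAs of this cluster, as given by RefSeq for GRCh38.p14, are printed with the seed, bases 2 to 8, in capitals.
miR-17-5p: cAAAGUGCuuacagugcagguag
miR-20a-5p: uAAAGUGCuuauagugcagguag
miR-18a-5p: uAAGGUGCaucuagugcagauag
miR-19a-3p: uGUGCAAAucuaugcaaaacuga
miR-19b-3p: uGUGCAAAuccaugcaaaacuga
miR-92a-3p: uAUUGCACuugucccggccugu
The 6 sequences hold 4 seeds. The seed AAAGUGC is shared by miR-17-5p and miR-20a-5p, and GUGCAAA by miR-19a-3p and miR-19b-3p. The merged locus has 1 value for all of them, and this value is that of the host transcript and not of the mature miRNAs. It was 20.2 and 18.4 FPKM in DMSO and 18.0 and 18.5 FPKM in SF1-8, so that the groups overlapped. Its log2 fold change was -0.05 with a standard error of 0.07 (adjusted p = 0.97 by the quasi-likelihood test of edgeR, adjusted over all entries tested by Benjamini-Hochberg, as everywhere below). Of the 246 miRNA genes that merged loci name, 224 have a RefSeq entry.

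The U1 small nuclear RNA, which pairs with the 5′ splice site at the start of splicing, gives the opposite case, in which genes share a value and also a sequence. A merged locus at chr1:16740516-16896154 (plus strand) names RNU1-4, RNU1-2 and the pseudogene CROCCP4. The GENCODE 29 transcripts of RNU1-4 (chr1:16740516-16740679) and RNU1-2 (chr1:16895980-16896143) are identical in all 164 bases. The first 11 bases, which hold the stretch that pairs with the 5′ splice site, are in capitals.
RNU1-4 and RNU1-2: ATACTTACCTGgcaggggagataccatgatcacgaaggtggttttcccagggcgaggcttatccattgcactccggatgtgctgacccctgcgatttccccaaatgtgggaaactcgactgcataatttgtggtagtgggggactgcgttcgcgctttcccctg
Reads of these genes cannot be assigned to either copy, nor kept apart from other identical copies elsewhere. The locus, chosen for its sequence after its values were seen, was at 176 and 592 FPKM in DMSO 1 and 2, and 466 and 587 FPKM in SF1-8 1 and 2. The low value was that of DMSO 1 alone, and the log2 fold change of 0.46 had a standard error of 0.56 (adjusted p = 0.97).

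The third case is a locus with separate starts. The locus of RAB40C and WFIKKN1 (chr16:589357-634116, plus strand) has a start for each gene, and the locus of the histone gene H2BC11 (chr6:27093612-27132795, minus strand) opens at a histone promoter. Both are among the loci with the largest changes described below. RefSeq promoters of 300 bases (GRCh38.p14), 250 before and 50 after the start, were searched on both strands for the TATA box motif TATAAA, for the CCAAT box and for the GC box motif GGGCGG, and matches are in capitals, joined where they overlap or touch.
RAB40C promoter, chr16:589107-589406, plus strand: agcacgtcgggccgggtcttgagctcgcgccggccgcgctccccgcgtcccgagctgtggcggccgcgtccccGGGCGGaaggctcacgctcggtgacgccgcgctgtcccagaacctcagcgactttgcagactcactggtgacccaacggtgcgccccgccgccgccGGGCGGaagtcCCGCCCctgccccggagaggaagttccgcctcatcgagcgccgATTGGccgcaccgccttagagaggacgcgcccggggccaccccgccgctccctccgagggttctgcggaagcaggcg
WFIKKN1 promoter, chr16:630735-631034, plus strand: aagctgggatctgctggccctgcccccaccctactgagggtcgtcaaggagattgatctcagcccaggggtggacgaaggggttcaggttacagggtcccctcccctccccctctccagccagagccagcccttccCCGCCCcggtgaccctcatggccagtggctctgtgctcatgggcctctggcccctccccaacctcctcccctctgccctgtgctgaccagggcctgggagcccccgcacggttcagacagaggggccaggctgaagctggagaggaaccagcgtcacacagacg
H2BC11 promoter, chr6:27132746-27133045, minus strand: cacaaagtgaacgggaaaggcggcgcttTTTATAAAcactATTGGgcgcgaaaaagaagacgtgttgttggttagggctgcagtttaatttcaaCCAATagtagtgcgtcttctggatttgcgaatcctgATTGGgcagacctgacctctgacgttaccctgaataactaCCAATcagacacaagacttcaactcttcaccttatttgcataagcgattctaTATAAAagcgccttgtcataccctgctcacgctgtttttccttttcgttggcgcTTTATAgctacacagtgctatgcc
The promoter of RAB40C, the first of 3 that RefSeq gives for this gene, held 3 matches of GGGCGG and 1 of CCAAT. The promoter of WFIKKN1 held 1 match of GGGCGG. The promoter of H2BC11 held 4 matches each of TATAAA and CCAAT, counting both strands and overlaps, and none of GGGCGG. Over all 35116 promoters of this length, 11.5% held TATAAA, 34.6% CCAAT and 45.0% GGGCGG. These matches describe letters only.

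Most merged loci were small groups. There were 998 loci with 2 gene names (57.8%), 556 with 3, 94 with 4 and 79 with 5 or more, and the 1727 loci named 4556 genes in all. The median span on the genome was 58719 bases, from 330 to 1552025, against 27316 bases in the single-gene entries. The number of transcripts was also higher, with a median of 16 per merged locus and 8 per single-gene entry. The share of merged loci among entries with a count of at least 200 in every library was 15.4% over the genome, and it was above 19% on the gene-dense chromosomes 22 (20.3%), 16 (20.1%) and 19 (19.7%) and lowest on the X chromosome (10.9%) among chromosomes with a merged locus.

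**Figure D1:**
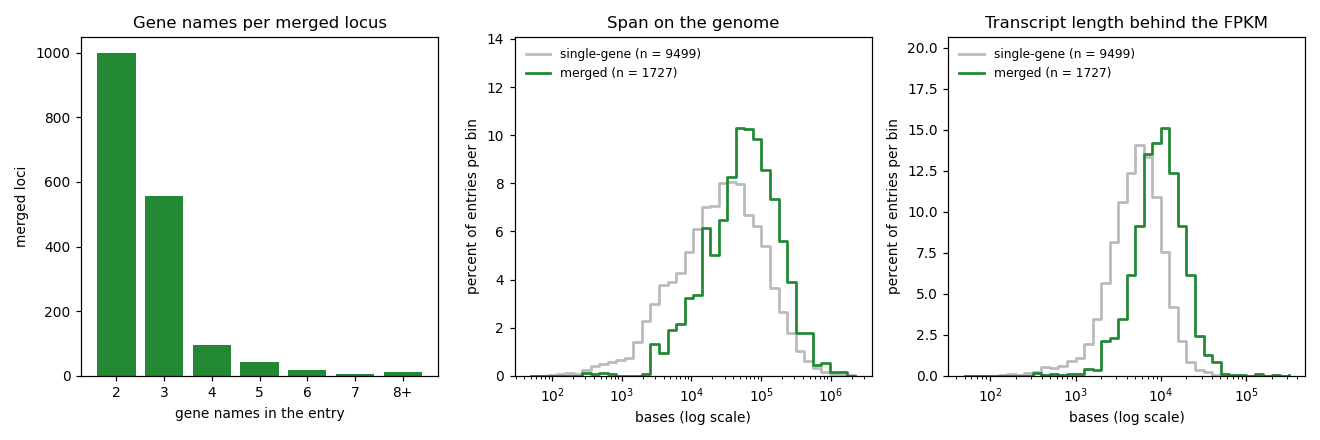
Gene names per merged locus (left, bars are numbers of loci), span on the genome (middle) and transcript length that the FPKM divides by (right), the last 2 in bases on a log scale as the percent of entries in each bin. Merged loci (green, 1727) lie to the right of single-gene entries (grey, 9499) in both, with median spans of 58719 and 27316 bases and median lengths of 9658 and 5302 bases.

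The genes of a merged locus usually overlap. At least 2 genes could be matched to GENCODE 29 through their transcripts in 1665 loci. Genes overlapped each other in 1493 of these (89.7%), and a gene lay wholly inside another in 865 (52.0%). A gap separated neighbouring genes in 237 loci. The largest gap of each of these loci had a median of 6218 bases and reached 453839 bases. Of these 237 loci, 85.2% held a transcript that the assembly had added to the annotation, against 59.5% of the loci without a gap. No gene matched through a transcript lay on the other strand. By name, however, 51 loci (2.95%) carried a gene name that GENCODE 29 places only on the opposite strand, and the loci with the largest rise and the largest fall were among them. Clone-based names were matched without their version number, so such a name can stand for another gene of the same clone.

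By the genes matched, 804 loci held 2 or more protein-coding genes. A further 291 held 1 protein-coding gene with a small RNA gene, 412 held 1 protein-coding gene with other non-coding genes or pseudogenes, 158 held no protein-coding gene, and 62 had fewer than 2 genes matched. A name of the read-through kind, in which 2 gene symbols of the locus are joined by a hyphen, occurred in 109 loci. A miRNA gene was held by 224 loci and a snoRNA or scaRNA gene by 96. The transcript types of the table showed the same make-up. The type lncRNA was present in 31.4% of merged loci and 5.66% of single-gene entries, any pseudogene type in 18.1% and 3.87%, miRNA in 13.0% and 0.0316%, and snoRNA in 5.27% and 0.0421%. Retained introns (69.0% against 51.3%) and transcripts subject to nonsense-mediated decay (57.9% against 38.5%) were also listed for more merged loci. These are shares of loci with at least 1 such transcript, and merged loci hold more transcripts.

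Merging changes what an FPKM divides by. The length behind each FPKM was worked out from the ratio of count to FPKM, scaled on 369 entries with a single exon, where it matched the span within 0.389%. Its median was 9658 bases in merged loci and 5302 in single-gene entries, and it was close to the joined length of all GENCODE 29 exons of the entry (median ratio 1.02). An abundant short gene in an entry with a long joined length thus has a low FPKM. In the beta-globin locus entry on chr11:5232678-5685074 (minus strand), 9 names, among them HBG1 and HBG2, the fetal globin genes, HBE1, HBD and the antiviral gene TRIM5, shared a length of 44032 bases, whereas the exons of HBG1 span 1659 bases and those of HBG2 869 bases in GENCODE 29. This entry had 84727 counts in DMSO 1, yet only 33.3 FPKM. Its joined GENCODE 29 exons were 19269 bases, well short of the length of 44032. Of its 52 transcripts, 12 were added by the assembly. In 10 merged loci the length exceeded the span given by the table by more than 0.5%, NEAT1 among them (22760 against 18027 bases).

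Merged loci held a large share of the counts. They took 30.6% and 33.4% of the counts in DMSO and 33.3% and 31.7% in SF1-8, and the difference between the group means of 0.495 percentage points was smaller than the spread between the DMSO libraries (SD 1.96, n = 2; exact permutation test, two-sided, p = 1.0, where 0.333 is the smallest value that 2 against 2 libraries allow). Ribosomal RNA loci on chromosome 21 gave much of this, with 11.03% to 14.09% of the counts of each library in merged loci of ribosomal RNA. Without ribosomal RNA entries the shares were 22.0% and 22.5% in DMSO and 22.6% and 22.5% in SF1-8. The difference was then 0.315 percentage points, and the test gave its smallest value of 0.333.

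The loci with the highest FPKM were all non-coding. The locus of RN7SK, the small nuclear RNA that holds the elongation factor P-TEFb inactive, was at 8312 and 13390 FPKM in DMSO and at 18939 and 14888 FPKM in SF1-8. The groups did not overlap, and the log2 fold change of 0.66 (SE 0.27, adjusted p = 0.97) was 0.32 without DMSO 1. The locus of RPPH1, the RNA of ribonuclease P, had 2309 and 5037 FPKM in DMSO and 6377 and 5869 in SF1-8. The locus of RN7SL2 and RN7SL3, RNAs of the signal recognition particle, had 747 and 1557 FPKM in DMSO and 1982 and 1561 in SF1-8. For both, the library below the rest was again DMSO 1, and the log2 fold changes were 0.75 (SE 0.38) and 0.63 (SE 0.37), and 0.27 and 0.17 without it. The locus of SCARNA2, a Cajal body RNA that guides the modification of spliceosomal RNA, ranged from 412 FPKM in DMSO 1 to 695 in DMSO 2. The 2 ribosomal RNA loci on chromosome 21 were at 1865 to 2344 and at 2039 to 2990 FPKM, with log2 fold changes of 0.09 and 0.03, which became -0.10 and -0.26 without DMSO 1. All 6 loci, and the U1 locus above, had their lowest value in DMSO 1, the shallowest library, and the part of depth in this was not tested.

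The comparison of SF1-8 with DMSO asked which entries changed when the mutant cells were given the compound. All 1727 merged loci passed the filter on low counts, within a test of 26167 entries. At an adjusted p under 0.05, 1 merged locus differed, and over all entries tested 0.042% did (11 entries). Among the 9499 single-gene entries of the same count minimum, 6 passed. At an unadjusted p under 0.05, 45 merged loci were higher with SF1-8 (2.61%, where 1.78% of all entries tested were) and 45 were lower (2.61%, where 2.54% of all entries were). These 90 loci made up 5.21% of the merged loci, against 4.33% of all entries tested and 3.99% of the single-gene entries. With an unadjusted threshold of this size, most of these loci are not separated from the spread between libraries. In 577 merged loci (33.4%) the FPKM values of the groups did not overlap, against 34.2% of all entries tested, so this count is no result about merged loci. By DESeq2 with its own size factors, 12 merged loci (0.695%) had an adjusted p under 0.05, 4 of them higher and 8 lower with SF1-8, against 0.652% of all entries with an adjusted p and 1.02% of the single-gene entries.

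Most fold changes were small. The median log2 fold change was 0.01 in merged loci and 0.02 in single-gene entries, and 80% of merged loci lay between -0.21 and 0.20. The fitted difference was 2-fold or more in 4 merged loci (0.232%), and after weighting the single-gene entries to the count levels of the merged loci 0.708% of them did. By count level, the share at an unadjusted p under 0.05 ran from 4.26% at a geometric mean count of 200 to 500 to 6.17% at 1000 to 2000 in merged loci, and from 2.86% to 4.60% in single-gene entries. The share was higher in merged loci in each of the 6 count levels, and with the same weighting it was 5.21% against 4.02%. No test was made of this difference, as entries are not replicates. The order did not hold with limma on log2(FPKM + 1), where 2.72% of merged loci and 3.25% of single-gene entries passed.

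**Figure D2:**
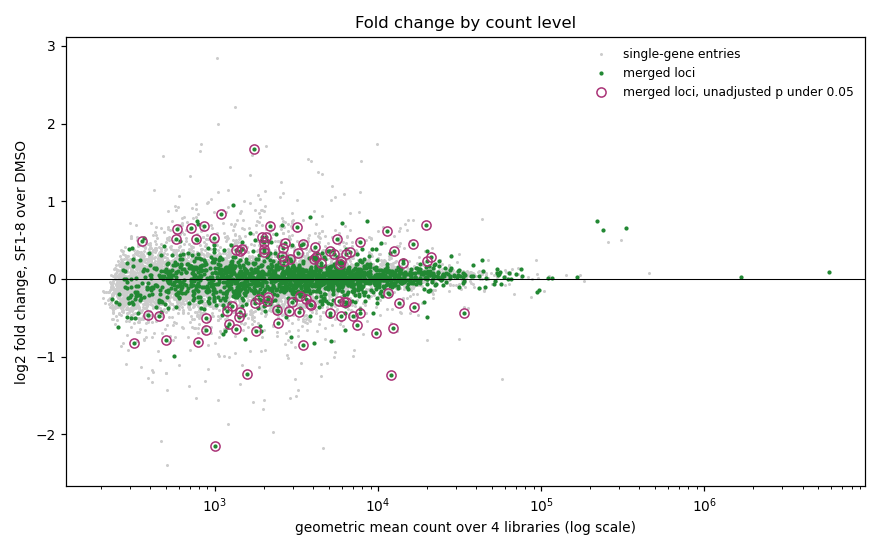
Log2 fold change of SF1-8 over DMSO (vertical) against the geometric mean count of the 4 libraries (horizontal, log scale) for single-gene entries (grey) and merged loci (green), with the 90 merged loci at an unadjusted p under 0.05 ringed. The ringed loci split into 45 above and 45 below 0, and 4 loci reach a 2-fold difference.

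The difference between libraries of like treatment fell with the count in both kinds of entry. In merged loci the median difference between DMSO 1 and DMSO 2 was 0.25 on the log2 scale at a count of 200 to 500 and 0.09 at 10000 or more. The corresponding values in single-gene entries were 0.23 and 0.08. Between the SF1-8 libraries the medians ran from 0.22 to 0.07 in merged loci and from 0.18 to 0.06 in single-gene entries. Averaged over the count levels of the merged loci, the mean difference was 0.21 in merged loci and 0.19 in single-gene entries for DMSO, and 0.19 and 0.17 for SF1-8. On this average, entries that sum several genes did not have a smaller spread than single-gene entries of like count. At a count of 1000 to 2000, however, the median difference between the DMSO libraries was 0.13 in merged loci and 0.14 in single-gene entries.

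**Figure D3:**
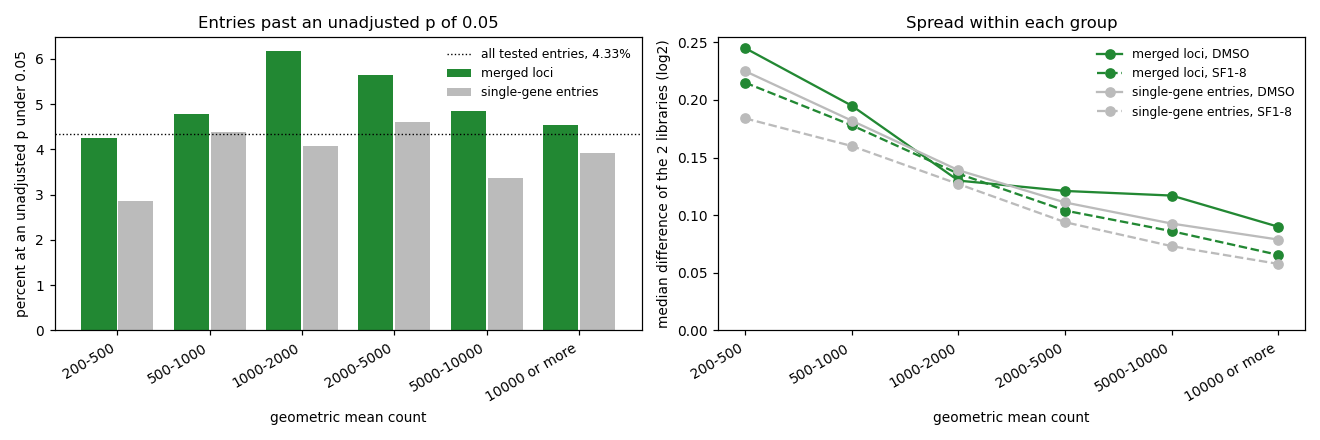
Left, percent of merged loci (green) and single-gene entries (grey) at an unadjusted p under 0.05 in 6 levels of geometric mean count, with the share of all entries tested, 4.33%, as a dotted line. Right, median difference between the 2 libraries of a group on the log2 scale, as solid lines for DMSO and dashed lines for SF1-8, which falls from 0.25 to 0.09 in merged loci for DMSO.

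Loci without a protein-coding transcript type had the larger share at an unadjusted p under 0.05, whereas the number of names moved this share less. By number, 4.81% of loci with 2 names, 5.58% with 3, 6.38% with 4 and 6.33% with 5 or more were at this p, the last of these being 5 of 79 loci. Of the loci without a protein-coding transcript type, 23 of 182 (12.6%) were at this p, 9 higher and 14 lower, where 4.33% of all entries tested were. The share was 4.34% (67 of 1545) in loci with such a transcript. Single-gene entries without a protein-coding type were at 5.02% (76 of 1514), and at 8.51% when weighted to the counts of the merged loci. With limma on log2(FPKM + 1) the share of non-coding merged loci was 6.04% against 4.23%, and it was 7.69% without SF1-8 2 and 18.1% without DMSO 2. These loci also had a wider spread, with a median difference between the DMSO libraries of 0.20 on the log2 scale against 0.12 in loci with a protein-coding type. Loci with 1 protein-coding gene and a small RNA gene had the lowest share among the classes, with 3.09% at an unadjusted p under 0.05 and 2 of 291 loci with a library that stood apart.

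The 1 merged locus past the adjusted threshold carries the name of KAZN, the gene of kazrin, a protein of cell junctions. The locus also names a clone-based gene that was not found in GENCODE 29. It covers chr1:14766638-14777730 on the minus strand, whereas KAZN lies on the plus strand at chr1:13892792-15118043, and no exon of GENCODE 29 falls in this window. By its listed strand the locus is thus antisense to an intron of KAZN, and 3 of its 4 transcripts were added by the assembly. The sources used here do not say whether the libraries keep the strand. It was at 2.52 and 2.46 FPKM in DMSO 1 and 2, and 7.72 and 7.83 FPKM in SF1-8 1 and 2. The 2 libraries of each group lay close together and the groups were far apart. The locus was 3.18-fold higher with SF1-8 (log2 fold change 1.67, SE 0.10, adjusted p = 0.0328, edgeR). The direction held in every alternative, from 1.33 to 1.69, but the adjusted p rose to 0.109 without DMSO 1 and to 0.066 without DMSO 2, where the lone DMSO library is assumed to vary like the SF1-8 libraries. It was also above the threshold with limma, at 0.259 on log2(FPKM + 1) and at 0.175 on log2(FPKM + 0.1), and at 0.122 with the replicate number as a block. The adjusted p was 4.44e-31 by DESeq2 and 0.00452 by edgeR without the filter on low counts. The entry of KAZN itself, on the plus strand, had 1.85 and 1.83 FPKM in DMSO and 1.99 and 1.89 in SF1-8 (log2 fold change 0.10, SE 0.10, adjusted p = 0.97), and the difference between the strands was not tested.

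The largest fall was also antisense by its listed strand. The locus named after NPIPB5, a member of a segmentally duplicated family on chromosome 16, covers chr16:22494242-22542674 on the minus strand, and NPIPB5 is on the plus strand at chr16:22479121-22536521. All 3 transcripts of the locus were added by the assembly, and the locus also names a pseudogene of its own strand. It was at 3.69 and 2.84 FPKM in DMSO 1 and 2, and 0.763 and 0.671 FPKM in SF1-8 1 and 2. Both SF1-8 libraries were well below both DMSO libraries. The log2 fold change was -2.15 (SE 0.16), with an adjusted p of 0.0556 by edgeR and 4.52e-24 by DESeq2. The merged locus on the plus strand that holds NPIPB5 and SMG1P1 was at 8.21 and 8.55 FPKM in DMSO and at 9.02 and 8.68 in SF1-8 (log2 fold change 0.10, SE 0.08). The difference between the strands was not tested. A separate entry named NPIPB5 alone lies on the minus strand within the coordinates of the falling locus, at chr16:22534329-22535970. It was at 3.0046 and 2.6227 FPKM in DMSO 1 and 2, and 2.7948 and 3.6731 FPKM in SF1-8 1 and 2. Its groups overlapped (log2 fold change 0.23, SE 0.25), so the fall was not seen in every minus-strand entry there. The difference between these minus-strand entries was not tested. NPIPB copies are close to identical, so reads may be shared with other copies, and whether the libraries keep the strand of a read is not given in the sources used here. Of the 51 loci with a name from the other strand, 3 were at an unadjusted p under 0.05 (5.88%), beside the 4.33% of all entries tested.

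**Figure D4:**
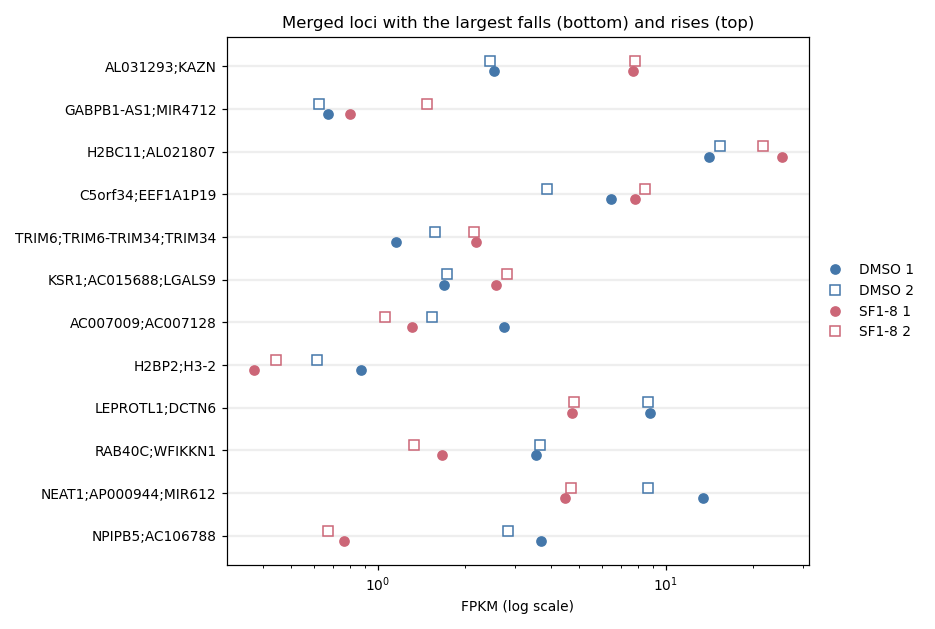
FPKM (log scale) in the 4 libraries for the 6 merged loci with the largest rises (top) and the 6 with the largest falls (bottom) among those at an unadjusted p under 0.05 whose groups do not overlap, DMSO in blue and SF1-8 in red, circles for library 1 and squares for library 2. The top locus (antisense in KAZN) has 2.46 and 2.52 FPKM in DMSO against 7.72 and 7.83 in SF1-8, and the bottom locus (antisense to NPIPB5) 2.84 and 3.69 against 0.671 and 0.763. Antisense is by the listed strand.

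The other loci ranked among the largest falls by their fitted values were not past the adjusted threshold by edgeR. NEAT1, the long non-coding RNA that builds paraspeckles and shares its entry with MIR612 (chr11:65422774-65440800, plus strand), was at 13.5 and 8.65 FPKM in DMSO 1 and 2, and 4.45 and 4.68 FPKM in SF1-8 1 and 2. The DMSO libraries differed from each other by more than the SF1-8 libraries did. The log2 fold change was -1.24 (SE 0.19, adjusted p = 0.457), and it was -0.93 without DMSO 1 and -1.49 without DMSO 2. By DESeq2 the adjusted p was 1.79e-06.

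The locus of RAB40C, a Rab-like GTPase of a ubiquitin ligase, and WFIKKN1, a secreted protein that binds myostatin, was at 3.55 and 3.65 FPKM in DMSO and at 1.67 and 1.34 in SF1-8. Its log2 fold change was -1.23 (SE 0.15), with an adjusted p of 0.227 by edgeR and 3.28e-08 by DESeq2. Exons of RAB40C make up 4180 bases and exons of WFIKKN1 4878 bases in GENCODE 29. The length of the locus, 9060.5 bases, is close to their sum, so the value belongs to the sum of the 2 genes. The RefSeq promoter of WFIKKN1 printed above lies inside this gene as GENCODE 29 gives it, with a start at chr16:629239. The locus of LEPROTL1, an endosomal membrane protein, and DCTN6, a dynactin subunit, was at 8.81 and 8.70 FPKM in DMSO and at 4.72 and 4.81 in SF1-8. Its libraries were the closest within each group among the falls (log2 fold change -0.85, SE 0.08), and its adjusted p was 0.121 by edgeR and 3.56e-09 by DESeq2. The last of the 6 falls were low in level or uneven in DMSO. The locus of the histone gene H3-2 and H2BP2 (chr1:143875171-143905793, minus strand) had 0.871 and 0.616 FPKM in DMSO and 0.371 and 0.442 in SF1-8. A locus of 2 clone-based genes at chr7:8262233-8348012 had 2.75 and 1.54 FPKM in DMSO and 1.32 and 1.06 in SF1-8. The log2 fold change of the latter was -0.81, and -0.39 without DMSO 1.

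Among the other rises were the loci of H2BC11, KSR1 and TRIM6. All the rises and falls were picked for groups that do not overlap, so that separation follows from the choice. H2BC11, a histone H2B gene, shares its entry with a long intergenic non-coding RNA. The length of the entry was 14174 bases, while the annotated exons of H2BC11 span 950 bases and those of the non-coding RNA 565 bases. The joined annotated exons of the entry were 1515 bases, well short of its length. Of its 8 transcripts, 4 were added by the assembly. Which part of the entry gave the rise was not tested. The entry was at 14.1 and 15.4 FPKM in DMSO and at 25.3 and 21.8 in SF1-8. Its log2 fold change was 0.70 (SE 0.11), with an adjusted p of 0.533 by edgeR and 0.00156 by DESeq2. The locus of KSR1, a scaffold of the RAF-MEK-ERK cascade, and LGALS9, the gene of galectin-9 (chr17:27456305-27649555, plus strand), was at 1.70 and 1.74 FPKM in DMSO and at 2.58 and 2.81 in SF1-8 (log2 fold change 0.67, SE 0.10). Its adjusted p was 0.397 by edgeR and 0.000352 by DESeq2. The locus of TRIM6 and TRIM34, ubiquitin ligases of the TRIM family, with the read-through gene TRIM6-TRIM34 (chr11:5596109-5644398, plus strand), was at 1.16 and 1.59 FPKM in DMSO and at 2.20 and 2.15 in SF1-8. Its log2 fold change of 0.68 was 0.44 without DMSO 1.

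The remaining rises rested on an uneven group. C5orf34 with the pseudogene EEF1A1P19 (chr5:43486563-43515148, minus strand) had 6.47 and 3.87 FPKM in DMSO and 7.79 and 8.44 in SF1-8, and its log2 fold change of 0.69 was 1.05 without DMSO 1 and 0.40 without DMSO 2. GABPB1-AS1, an antisense long non-coding RNA that holds MIR4712 (chr15:50354959-50372158, plus strand), had 0.673 and 0.623 FPKM in DMSO, 0.799 in SF1-8 1 and 1.48 in SF1-8 2. Here SF1-8 2 alone was well above the rest, and the log2 fold change of 0.84 was 0.34 without it. Neither these loci nor that of TRIM6 passed an adjusted threshold in edgeR or DESeq2.

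Of the loci with the most genes or the widest spans, none was at an unadjusted p under 0.05. The locus of SNRPN and SNHG14 (chr15:24126593-25420336, plus strand), imprinted genes that host the SNORD115 and SNORD116 snoRNA genes, carried 48 names and 258 transcripts over 1293744 bases. Its level was 0.0532 and 0.0442 FPKM in DMSO and 0.0513 and 0.0345 in SF1-8, the lowest of the loci named here (log2 fold change -0.15, SE 0.24). The gamma-protocadherin locus (chr5:141330571-141512981, plus strand), in which variable first exons of adhesion genes are spliced to shared last exons, carried 22 names and had between 0.0734 and 0.0866 FPKM in the 4 libraries. Its log2 fold change was 0.00 (SE 0.17). A locus of 9 names at chr16:29381354-29613717 (minus strand) with BOLA2 and NPIPB12 had 2.52 to 3.05 FPKM. TAF1D, a subunit of the RNA polymerase I factor SL1, with 7 snoRNA genes and MIR1304 in its entry (chr11:93729948-93784391, minus strand), had 10.6 and 10.3 FPKM in DMSO and 10.8 and 11.2 in SF1-8. The groups of TAF1D did not overlap, but the log2 fold change was 0.11 (SE 0.07, adjusted p = 0.97).

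The widest locus joined DAB1, an adaptor of reelin signalling, and OMA1, a mitochondrial protease, over 1552025 bases (chr1:56994778-58546802, minus strand), with 1.42 to 1.96 FPKM. TBC1D5 and SATB1 shared 1288427 bases of chromosome 3 at 2.40 to 2.57 FPKM, and SAMD5 and SASH1 shared 1024128 bases of chromosome 6 at 1.97 to 2.14 FPKM. A locus of unnamed long non-coding RNAs at chr21:6318434-7469007 had 3.71 to 4.21 FPKM. The log2 fold changes of these 4 loci lay between -0.11 and 0.07.

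The genes of the beta-globin locus had 33.3 and 29.3 FPKM in DMSO and 27.5 and 27.8 in SF1-8. Both SF1-8 libraries were lower than both DMSO libraries, and DMSO 2 lay nearer to them than to DMSO 1 (log2 fold change -0.15, SE 0.06, unadjusted p = 0.0558, adjusted p = 0.97). The alpha-globin genes HBA2 and HBA1 shared a value of 86.7 and 80.9 FPKM in DMSO and 76.2 and 79.4 in SF1-8 (log2 fold change -0.08). Embryonic HBZ with HBM had 19.8 and 22.0 FPKM in DMSO and 20.7 and 18.0 in SF1-8, with overlapping groups. GYPB with GYPE, genes of red cell surface proteins, had 4.22 to 4.53 FPKM. Of the 14 erythroid genes listed, 8 lay in 5 merged loci, and none of the 5 was at an unadjusted p under 0.05, with a median log2 fold change of -0.08 against 0.01 over all merged loci.

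Genes of the spliceosome and of splicing regulation were on a list of 43, of which 10 lay in a merged locus each. None of the 10 loci was at an unadjusted p under 0.05, 5 were above and 5 below 0, and the median log2 fold change was -0.02. SF3A2, a subunit of the U2 particle, merged with the hormone gene AMH, had 11.6 and 10.7 FPKM in DMSO and 9.80 and 9.42 in SF1-8, with groups that did not overlap (log2 fold change -0.19, SE 0.08, unadjusted p = 0.0591, adjusted p = 0.97). SF3B3 with SNORD111 had 20.5 and 19.5 FPKM in DMSO and 18.3 and 18.7 in SF1-8 (log2 fold change -0.08). LUC7L2, a U1-associated factor merged with FMC1 through the read-through gene FMC1-LUC7L2, was at 17.2 to 17.7 FPKM in all libraries. SRSF2, a serine/arginine-rich factor whose entry holds MIR636, split in another way, with 46.3 FPKM in DMSO 1 and 46.5 in SF1-8 2 but 21.3 in DMSO 2 and 22.0 in SF1-8 1. Its log2 fold change of 0.06 had a standard error of 0.46. SRSF6, merged with L3MBTL1 and SGK2, ranged from 3.54 FPKM in SF1-8 2 to 6.03 in DMSO 1. SRSF1, SRSF4, HNRNPK, HNRNPL and SNRNP200 had log2 fold changes between -0.07 and 0.04.

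Host genes of snoRNAs are spliced to release the snoRNAs from their introns, and 13 of the 15 listed lay in merged loci. Of these loci, 6 were above and 7 below 0, with a median log2 fold change of -0.01. At an unadjusted p under 0.05 were 3 of the 13, where 4.33% of all entries tested and 5.21% of the merged loci were, and none passed the adjusted threshold. SNHG16, host of SNORD1A and SNORD1C, was at 29.3 and 17.6 FPKM in DMSO 1 and 2, and 31.5 and 38.4 FPKM in SF1-8 1 and 2 (log2 fold change 0.61, SE 0.23). The DMSO libraries were uneven, and the value was 0.98 without DMSO 1 and 0.33 without DMSO 2. SNHG17, host of the SNORA71 genes, had 5.77 and 5.16 FPKM in DMSO and 5.99 and 7.46 in SF1-8 (log2 fold change 0.32, SE 0.12), and the value was 0.17 without SF1-8 2. ZFAS1, host of SNORD12 genes, had 5.80 and 5.79 FPKM in DMSO and 4.77 and 4.98 in SF1-8 (log2 fold change -0.22, SE 0.09). The directions of these 3 loci therefore differed. SNHG32, merged with the heat shock genes HSPA1A and HSPA1B, was low in DMSO 1 (54.1 FPKM) and SF1-8 1 (55.8) and high in DMSO 2 (90.4) and SF1-8 2 (83.8).

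Of 25 genes named in the study or tied to it, 4 lay in merged loci. PLD3, a lysosomal nuclease merged with a clone-based gene, had 7.30 and 7.50 FPKM in DMSO and 6.62 and 7.71 in SF1-8. MCL1, an anti-apoptotic protein of the BCL2 family merged with ADAMTSL4-AS1, had 30.4 and 24.5 FPKM in DMSO and 24.9 and 30.0 in SF1-8. PACSIN2, a membrane-bending protein merged with ARFGAP3, had 6.94 and 6.67 FPKM in DMSO and 6.42 and 6.20 in SF1-8, and PSMA1, a proteasome subunit merged with COPB1, had 12.6 to 13.0 FPKM. All 4 log2 fold changes lay between -0.08 and 0.04, and the smallest unadjusted p was 0.36 (edgeR). For these genes the value of the entry is that of the gene together with its neighbours. The paper described PACSIN2, PLD3 and PSMA1 by shifts between their transcripts, which such a value does not measure. For total PLD3 mRNA it reported an insignificant decrease, and for MCL1 no effect of SF1-8.

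In 43 merged loci (2.49%) a single library lay at least 2-fold from the median of the other 3 in normalized count, and in 3.06% of single-gene entries. DMSO 1 was the library apart in 12 loci, DMSO 2 in 14, SF1-8 1 in 5 and SF1-8 2 in 12. The 10 loci with the largest departures, chosen after their values were seen, were all low in that library. The locus of FOXO3B, ZNF286B and TBC1D28 had 0.167 FPKM in DMSO 2 against 1.47 to 1.52 elsewhere. CIPC with TMEM63C was at 0.449 FPKM in SF1-8 1 against 2.82 to 2.91 elsewhere, and ZNF664 with RFLNA at 1.88 against 10.1 to 10.9. KPNA6, the gene of an importin, had 5.02 FPKM in DMSO 2 and 21.0 to 21.1 in the other 3 libraries. In each of these 4 loci the other 3 libraries, of both groups, lay close together.

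**Figure D5:**
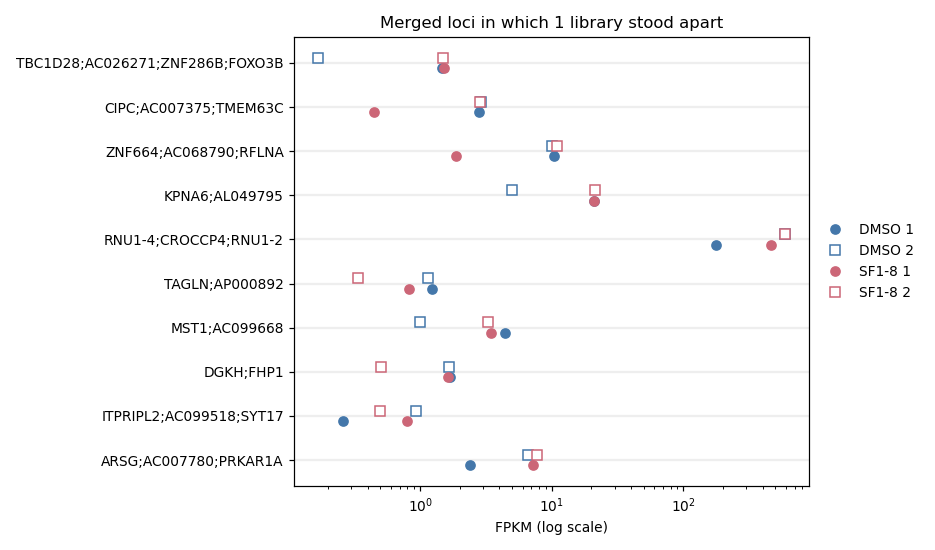
FPKM (log scale) in the 4 libraries for the 10 merged loci in which a single library departed most from the other 3, DMSO in blue and SF1-8 in red, circles for library 1 and squares for library 2. The locus of FOXO3B (top) has 0.167 FPKM in DMSO 2 and 1.47 to 1.52 FPKM in the other 3 libraries.

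The members were chosen by their counts. Just inside the minimum of 200 were the loci of ZRANB1 with a lowest count of 200, EFCAB7 with 205, RPL32P3 with 209 and MIRLET7BHG with 212. Among those just outside were HOXB-AS3 with 194, ZNF222 with 198, and a locus of clone-based genes at chr1:32986952-33032469 with 198.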

How the data were processed

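Total RNA of 4 K562 libraries was depleted of ribosomal RNA and sequenced after a TruSeq total RNA preparation. Per the labels, cutadapt, FastQC, Bowtie2, HISAT2 and StringTie were used with hg38, and versions and settings are not given in the sources used here. The authors deposited FPKM values, normalized for length and depth, and estimated counts per entry without normalization, as whole numbers of which 4 was the commonest above 0. Counting error was therefore not computed, and n is 2 libraries per group throughout. Entries without a gene name held 0.358% to 0.421% of the counts and were left out. No columns of other samples were present. The counts were normalized by TMM, filtered by filterByExpr and tested by edgeR's quasi-likelihood test (edgeR 4.0.16, limma 3.58.1, DESeq2 1.42.0, R 4.3.3), with p-values adjusted over 26167 entries by Benjamini-Hochberg. The steps were tested on simulated counts. Single-gene entries were weighted to the merged loci over 6 levels of geometric mean count (limits 500, 1000, 2000, 5000 and 10000). Genes, exons and strands came from GENCODE 29 through the transcript identifiers.

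Loci were named if they had the most names (5), the widest span (5), the highest FPKM (6), an adjusted p under 0.05, the 6 largest rises or falls at an unadjusted p under 0.05 without overlap of the groups, a lowest count nearest to 200 (4 on each side), or a gene of 4 lists (study, splicing, snoRNA host and erythroid genes). The members, lists and rules were chosen with earlier results of these data known. Gene names that are clone identifiers are not printed. The values of 2 loci that these rules name are not reported here.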

Additional observations from a re-analysis of the deposited data

How the results depend on the processing

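At an unadjusted p under 0.05, the 90 merged loci became 47 with limma on log2(FPKM + 1) and 50 with log2(FPKM + 0.1), and 88 to 159 when a library was left out, the highest without DMSO 2. The 379 single-gene entries became 447 to 697 when a library was left out, again highest without DMSO 2. At an adjusted p under 0.05, the 1 merged locus became 12 with DESeq2, 2 without the filter on low counts, 0 with either limma setting (47 and 50 at an unadjusted p), and 0 to 3 when a library was left out, with 0 without DMSO 1 (116 at an unadjusted p). The 6 single-gene entries became 97 with DESeq2, 22 without the filter, 0 with either limma setting and 0 to 17 when a library was left out. With a library left out, the lone library of its group is assumed to vary like the other group. The cause was not tested.

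Libraries with the same number did not deviate together when all entries were taken at once (correlation 0.0165 across 26167 entries). With 2 libraries per group, this cannot tell whether samples with the same number were prepared together. With the replicate number as a block, 87 merged loci were at an unadjusted p under 0.05 and 0 at an adjusted p, and 400 and 0 single-gene entries.

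Dividing counts by 4, leaving out TMM factors or ribosomal RNA loci, and count minimums of 100 or 400 gave 83 to 99 merged loci at an unadjusted p under 0.05 and 1 at an adjusted p. The median log2 fold change of merged loci lay between -0.03 and 0.03 in all settings. The difference in the share of counts lay between -0.89 and 1.88 percentage points when a library was left out. The 12 loci with the largest changes kept their direction in all 12 alternatives run on each. They were picked in these data for groups that do not overlap, so a reversal was hardly possible and this is no test of their direction. Precision is limited by 2 libraries per group, and a count in this table is not a read.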
